A study of Mus musculus with 34 samples.

Results

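Cell-cell junction genes were followed through stromal cells of 9 mouse tissues. The set holds 43 named genes of 51826 gene IDs in the count files: 10 classical and related cadherins, 12 desmosome genes, 11 claudins and 10 other tight junction genes. They were listed by name and junction type, with earlier results of these data known, and 40 of them had enough counts to be tested; Dsc1 (46 counts summed over all libraries), Dsg3 (32) and Cldn4 (14) had not. Cells had been sorted straight into TRIZOL after tissue digestion. All were negative for CD45 (leukocytes), CD31 (endothelium) and Epcam (epithelium) and positive for podoplanin (PDPN). The PDGFRA+ fraction is called fibroblasts and the PDGFRA- fraction mesothelial cells, after the study's own gate names. Fibroblasts came from bone, lymph node, spleen, pancreas, omentum, mesentery, epididymal adipose, inguinal adipose and brown adipose tissue, and mesothelial cells from omentum, mesentery and epididymal adipose. There were 3 libraries of polyA RNA in each of the 12 groups except pancreas and spleen, which had 2 each, giving 25 fibroblast and 9 mesothelial libraries. Every library is labelled GFPneg; the reporter, strain, age and sex of the mice, and any treatment, were not given in the sources used here. Nothing in the labels says that libraries of 1 group came from separate mice, so the p-values cover the spread from library to library and nothing beyond it.

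Cadherins are calcium-dependent adhesion proteins: the classical members join neighbouring cells at adherens junctions and are held there by catenins. Desmosomes use their own cadherins, the desmocollins (Dsc) and desmogleins (Dsg), which are tied to intermediate filaments through plakoglobin (Jup), plakophilins (Pkp) and desmoplakin (Dsp). Tight junctions seal the space between cells with claudins, occludin and the MARVEL proteins, together with immunoglobulin-type proteins (F11r, also called JAM-A, Jam2, Jam3 and Cxadr) and cytoplasmic scaffolds (Tjp1, also called ZO-1, Tjp3 and cingulin, Cgn). Mesothelium is a flat epithelium of mesodermal origin that covers the organs and walls of the body cavities and carries such junctions, whereas fibroblasts lie singly in matrix and are best known for mesenchymal cadherins such as Cdh2 (N-cadherin) and Cdh11 (OB-cadherin).

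Total counts ran from 28651435 to 42335589 per library. Levels are given as counts-per-million (CPM), and 3 counts corresponded to 0.0684 to 0.118 CPM, the level below which a gene at no count cannot be placed. CPM here are relative to library totals scaled by the trimmed mean of M values. Pdgfra, the gene of the sorting antigen, was at 367.4 to 1424 CPM in fibroblasts and 4.43 to 13.5 CPM in mesothelial libraries, and Epcam was at most 5.12 CPM anywhere. The 16 mesothelial markers (Msln, Upk3b, Krt19 and others) summed to 11830 to 18750 CPM in the mesothelial libraries. In fibroblasts they summed to at most 1269 CPM, with the highest values, 877 to 1269 CPM, in omentum. The 12 fibroblast markers (Pdgfra, Col1a1, Dcn and others) summed to 25540 to 34600 CPM in omentum mesothelial libraries. These overlapped with omentum fibroblasts (31440 to 38700 CPM). The sums were 20020 to 27180 CPM in mesentery and 19680 to 23860 CPM in epididymal mesothelial libraries. Fibroblasts of those depots had 37380 to 46380 and 45080 to 51100 CPM. The part of fibroblast RNA in the mesothelial values was not tested. Acinar transcripts of the exocrine pancreas summed to 34770 and 170000 CPM in the pancreas libraries, and reached 5936 CPM in mesentery mesothelial cells, 4386 CPM in omentum fibroblasts, 3680 CPM in mesentery fibroblasts and 2374 CPM in omentum mesothelial cells. In all of these bulk libraries, fewer cells of a type and less RNA per cell cannot be told apart.

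RefSeq promoter entries of GRCm38.p6 were matched for 23 of the 43 genes (31 start sites). Shown are those of the genes with an entry among the genes that were higher in mesothelial cells than in fibroblasts of all 3 depots, because the mesothelial results turn on them. Each line gives the part of the 250 bases before the start site that no annotated exon of the gene overlaps, 5′ to 3′ on the gene's strand. Capitals mark matches on either strand to 5 motifs: the E-box bound by Snail and Zeb factors (CAGGTG), the Grainyhead motif (AACCNGTT), the TEAD motif (CATTCC), the AP-1 motif (TGANTCA) and the GC box (GGGCGG).
Cldn1 chr16:26371842-26372089 (- strand): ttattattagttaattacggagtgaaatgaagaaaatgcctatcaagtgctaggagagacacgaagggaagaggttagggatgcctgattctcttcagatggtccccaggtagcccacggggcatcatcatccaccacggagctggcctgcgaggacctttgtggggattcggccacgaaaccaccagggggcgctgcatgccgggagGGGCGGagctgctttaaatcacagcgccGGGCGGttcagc
Cldn3 chr5:134985964-134986213 (+ strand): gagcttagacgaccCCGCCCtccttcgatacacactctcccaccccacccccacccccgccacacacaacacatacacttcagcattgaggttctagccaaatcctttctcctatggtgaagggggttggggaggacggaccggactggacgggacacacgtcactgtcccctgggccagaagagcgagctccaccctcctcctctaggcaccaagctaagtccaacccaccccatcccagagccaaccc
Cldn10 chr14:118787621-118787870 (+ strand): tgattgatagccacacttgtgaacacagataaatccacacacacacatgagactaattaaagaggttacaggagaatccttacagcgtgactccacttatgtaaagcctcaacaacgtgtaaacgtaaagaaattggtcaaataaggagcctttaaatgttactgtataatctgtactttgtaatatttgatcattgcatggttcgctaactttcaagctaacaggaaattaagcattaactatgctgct
Cldn15 chr5:136967619-136967843 (+ strand): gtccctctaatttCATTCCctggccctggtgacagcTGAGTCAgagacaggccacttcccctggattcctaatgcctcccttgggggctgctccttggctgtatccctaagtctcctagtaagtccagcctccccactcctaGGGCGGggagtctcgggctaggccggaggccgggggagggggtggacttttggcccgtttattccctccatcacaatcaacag
F11r chr1:171437311-171437534 (+ strand): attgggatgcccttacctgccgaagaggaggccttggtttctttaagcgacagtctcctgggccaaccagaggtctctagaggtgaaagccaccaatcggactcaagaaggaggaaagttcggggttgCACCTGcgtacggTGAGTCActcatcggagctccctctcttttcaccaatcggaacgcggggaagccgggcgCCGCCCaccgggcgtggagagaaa
Cgn chr3:94786493-94786732 (- strand): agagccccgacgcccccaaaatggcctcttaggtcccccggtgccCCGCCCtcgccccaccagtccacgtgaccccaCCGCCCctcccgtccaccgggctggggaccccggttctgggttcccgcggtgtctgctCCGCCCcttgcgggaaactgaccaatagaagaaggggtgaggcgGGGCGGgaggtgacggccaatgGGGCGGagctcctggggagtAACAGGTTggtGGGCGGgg
Among these stretches, the Cgn one held 6 GC boxes and 1 Grainyhead match, the F11r one an E-box, an AP-1 and a GC box match, and the Cldn15 one a TEAD, an AP-1 and a GC box match. The Cldn1 stretch held 2 GC boxes, the Cldn3 stretch 1, and the Cldn10 stretch had none of these letters. Cldn10 has a second RefSeq start further along chromosome 14, with 3 GC boxes in its 250 bases. It is not printed, since annotated exons of the gene leave a stretch of only 32 bases there. Over the full 250 bases, an E-box was present in 7 of the 31 windows of the set (22.6%) and in 17.2% of 32851 RefSeq promoters of the same length. The corresponding shares were 6.5% and 1.8% for the Grainyhead motif, 16.1% and 12.6% for TEAD, 9.7% and 6.7% for AP-1, and 64.5% and 32.7% for the GC box. A match is a run of letters and was not tested as a binding site.

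The genes lie in several short clusters of the GRCm38 genome. Cdh3 (chr8:106510891-106557297) and Cdh1 (chr8:106603351-106670246) are neighbours 46.1 kb apart, and Cldn4 and Cldn3 on chromosome 5 are 39.3 kb apart. Ocln and Marveld2 share a stretch of chromosome 13 with a gap of 43.2 kb. The desmosomal cadherins Dsc3, Dsc2, Dsc1, Dsg1a, Dsg3 and Dsg2 form 1 series on chromosome 18, with Dsc3 and Dsc2 separated by 28.3 kb. Neighbouring genes could differ: Dsg3 and Dsc1 were too low to test while Dsg2 and Dsc2 were tested, and Cldn4 was too low while its neighbour Cldn3 was tested. Cldn22 (995 exonic bases) lies wholly within Wwc2 on the opposite strand, and whether the counting used strand is not given in the sources used here, so its values are uncertain.

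Levels of different genes are compared only per kilobase of exonic sequence, and the leading genes of 5 of the 12 groups are given. Leading genes and shares are among the listed genes of each family only. The 3 mesothelial groups had the same leading claudin, cadherin and desmosome gene. Per kilobase, Cldn15 accounted for 76.6%, 72.2% and 70.5% of the listed claudins' RNA in omentum, mesentery and epididymal mesothelial cells. Cdh11 accounted for 88.0%, 56.2% and 61.8% of the listed cadherins' RNA. Cdh3 (P-cadherin) made up most of the rest of it in mesentery (40.7%) and epididymal (30.6%) mesothelial cells, against 8.9% in omentum. Jup was the leading desmosome gene in the same 3 groups, with 77.8%, 64.7% and 68.4%. In bone fibroblasts Cdh2 led the cadherins at 38.65 ± 11.2 CPM per kb (SD, n = 3), 52.4% of the family, followed by Cdh11 at 29.54 CPM per kb, and the Cdh2 spread is wide enough that these neighbours in the order cannot be separated. In lymph node fibroblasts Dsc3 led the desmosome genes at 129.1 ± 47.3 CPM per kb (SD, n = 3), 64.8% of the family, with Dsc2 at 30.1% and Jup at 3.0%.

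**Figure D1:**
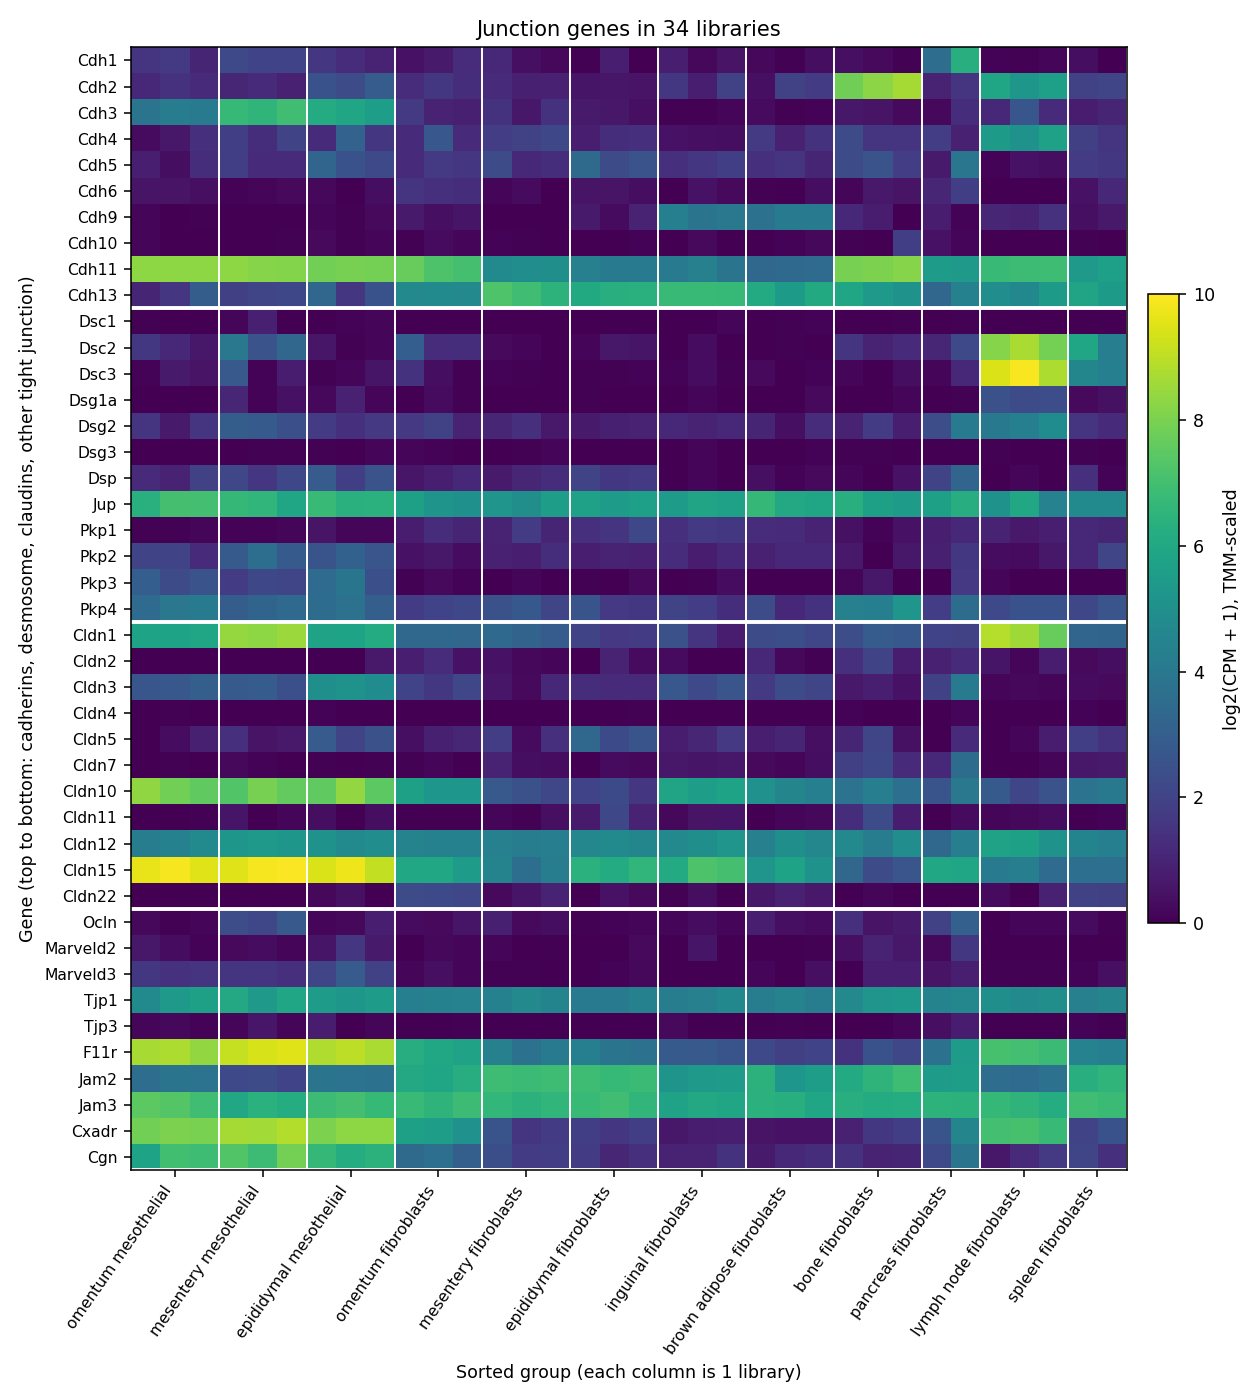
Levels of the 43 junction genes (vertical axis, by family) in the 34 libraries (horizontal axis, by group), as colour on a log2(CPM + 1) scale. Cldn15, F11r, Cxadr and Cdh3 stand out in the 9 mesothelial libraries, Dsc2 and Dsc3 in the 3 lymph node libraries, and Cdh2 in the 3 bone libraries.

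Mesothelial cells were set against fibroblasts of the same depot in omentum, mesentery and epididymal fat, a comparison of the cells that line a tissue with the fibroblasts within it. Averaged over the depots, 23 of the 40 tested genes were higher in mesothelial cells and 5 lower, at a Benjamini-Hochberg adjusted p under 0.05 in edgeR's quasi-likelihood test and a log2 fold change of at least 1. The same rule called 21.4% of all 25705 genes tested, 12.3% as higher and 9.08% as lower. The median log2 difference of the junction genes was 1.29, against 0.11 over all genes. A gene expressed in a single group could pass the count filter on that group alone, so these counts describe the genes that passed and are not used as support for a direction. Of the 40 tested junction genes, 14 were called higher and 3 called lower with no overlap between the 9 libraries of each side. That rule was met by 5.05% and 4.08% of all 25705 genes tested. Among the 5503 called of all genes, 1299 were higher and 1050 lower without overlap.

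Cadherins divided. In the average over depots 4 of 10 were higher and 1 was lower, with a family median of -0.26. Cdh3 stood at 13.4, 17.7 and 16.1 CPM in the omentum mesothelial libraries, 104, 91.1 and 123 CPM in mesentery and 71.0, 58.5 and 47.0 CPM in epididymal. The fibroblasts of those depots ranged from 0.340 to 2.23 CPM for Cdh3, so the sides did not overlap. The log2 difference was 5.55 (SE 0.27, adjusted p = 9.53e-19, edgeR's quasi-likelihood test). Cdh1 (E-cadherin), its neighbour on chromosome 8 and the cadherin of most epithelia, remained low at 0.981 to 3.59 CPM in mesothelial cells against 0 to 1.44 CPM in the fibroblasts. Its log2 difference was 1.96 (SE 0.44, adjusted p = 0.000171, edgeR) and became 3.23 without epididymal fibroblast replicate 2, the library at 0.772 CPM.

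Cdh11, usually described as a mesenchymal cadherin, was also higher in mesothelial cells. Its CPM values were 316, 315 and 312 in omentum, 312, 294 and 286 in mesentery and 236, 248 and 239 in epididymal mesothelial cells. Omentum fibroblasts had 205, 145 and 130.0 CPM of Cdh11, mesentery fibroblasts 26.4, 29.1 and 30.8 CPM, and epididymal fibroblasts 19.4, 16.0 and 15.9 CPM. All 9 mesothelial libraries were above all 9 fibroblast libraries, by 2.72 on the log2 scale (SE 0.09, adjusted p = 1.02e-21, edgeR). Cdh13 (T-cadherin, a member anchored by lipid and without a cytoplasmic tail) went the other way, with 1.06 to 8.77 CPM in mesothelial cells and 24.9 to 149.8 CPM in fibroblasts (log2 difference -4.0, SE 0.25, adjusted p = 3.02e-13, edgeR). Cdh2 was called on average (1.07 on the log2 scale), but its difference dropped below the threshold, to 0.98, 1.0 and 0.96, without epididymal mesothelial replicate 1, epididymal mesothelial replicate 3 or mesentery mesothelial replicate 1.

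Desmosome genes were mostly higher, 7 of 10 tested, with 1 lower and a median of 1.49, yet the desmosomal cadherins themselves were scarce. Dsg2, the widely expressed desmoglein, was at 0.634 to 6.63 CPM in mesothelial cells. Dsp, the plaque protein that binds intermediate filaments, was at 0.937 to 6.29 CPM. Their calls lay near the fold threshold and ended when any 1 of several libraries was left out. Dsg2 (1.05) dropped to between 0.89 and 0.98 without mesothelial replicate 1 of any depot, omentum mesothelial replicate 3, or fibroblast replicate 3 of mesentery or omentum. Dsp (1.13) dropped to between 0.92 and 0.99 without epididymal or mesentery mesothelial replicate 1 or omentum mesothelial replicate 3. Dsc3 (2.46) lost its call without any of 6 libraries and was 1.49 without mesentery mesothelial replicate 1 and 3.14 without omentum fibroblast replicate 1. The armadillo proteins of the plaque were steadier. Jup was at 58.3 to 133 CPM in mesothelial cells and 29.6 to 51.7 CPM in fibroblasts (log2 difference 1.21, SE 0.17, adjusted p = 4.79e-07, edgeR), with no overlap.

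Plakophilins did not move as 1 group. Pkp3 had 7.01, 4.02 and 4.90 CPM in omentum, 2.42, 3.54 and 3.31 CPM in mesentery and 10.4, 13.8 and 4.38 CPM in epididymal mesothelial cells, whereas no fibroblast library of these depots exceeded 0.199 CPM. The log2 difference was 6.26 (SE 0.87, adjusted p = 6.19e-14, edgeR), 6.91 without epididymal fibroblast replicate 3 and 7.41 without mesentery fibroblast replicate 2. Pkp2 was 2.73 higher (SE 0.29) and Pkp4 1.60 higher (SE 0.24) on the log2 scale. Pkp1, best known from stratified epithelia, was lower by -3.77 (SE 0.47, adjusted p = 1e-11, edgeR), with 0.684 to 3.46 CPM in fibroblasts and at most 0.456 CPM in mesothelial cells.

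Claudins were few but high. Of 10 tested, 4 were higher, 2 were lower (Cldn2 and Cldn22, both with a mesothelial group at no count) and the family median was 0.23. Cldn15, a claudin that forms cation-selective pores, had 806, 931 and 726 CPM in omentum, 738, 926 and 991 CPM in mesentery and 692, 854 and 538 CPM in epididymal mesothelial cells. In fibroblasts of the same depots Cldn15 ranged from 11.3 to 95.5 CPM (log2 difference 4.23, SE 0.16, adjusted p = 2.87e-19, edgeR). Cldn10, which occurs as cation- and anion-selective isoforms that these gene counts do not separate, had 156 to 331 CPM in mesothelial cells and 1.98 to 50.5 CPM in fibroblasts (4.77, SE 0.18, adjusted p = 1.62e-18, edgeR). Cldn1, a sealing claudin of skin and other barriers, differed by 4.17 (SE 0.18) and Cldn3 by 2.93 (SE 0.25). Cldn1, Cldn10 and Cldn15 each separated the 9 mesothelial from the 9 fibroblast libraries, as did Cldn3 with 4.41 CPM as its lowest mesothelial and 3.34 CPM as its highest fibroblast value. Cldn12 was at 17.8 to 41.2 CPM in mesothelial cells and 18.1 to 26.9 CPM in fibroblasts and differed by 0.46 (SE 0.13), below the fold threshold.

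Of the other tight junction genes 8 of 10 were higher and 1 was lower, with a median of 3.39. F11r had 413, 437 and 333 CPM in omentum, 562, 676 and 721 CPM in mesentery and 442, 511 and 419.9 CPM in epididymal mesothelial cells. Omentum fibroblasts had 74.6, 62.8 and 53.9 CPM of F11r and those of mesentery and epididymal fat 12.4 to 19.3 CPM (log2 difference 4.31, SE 0.16, adjusted p = 5.46e-19, edgeR). Cxadr, the coxsackievirus and adenovirus receptor, had 236 to 454 CPM in mesothelial cells, and 1.81 to 4.97 CPM in mesentery and epididymal fibroblasts but 49.8, 45.8 and 32.4 CPM in omentum fibroblasts (5.52, SE 0.20, adjusted p = 5.78e-19, edgeR). The scaffold gene Cgn differed by 4.92 (SE 0.24) and Tjp1 by 1.18 (SE 0.12).

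Within the JAM family the 3 members took 3 courses. F11r was higher in mesothelial cells, Jam2 was lower and Jam3 was called in neither direction. Jam2, best known from endothelium, had 3.0 to 13.4 CPM in mesothelial cells against 58.1 to 119 CPM in fibroblasts (log2 difference -3.50, SE 0.12, adjusted p = 1.05e-20, edgeR). Jam3 was abundant on both sides, at 60.9 to 178 CPM in mesothelial cells and 85.1 to 121 CPM in fibroblasts, and differed by 0.10 (SE 0.10).

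**Figure D2:**
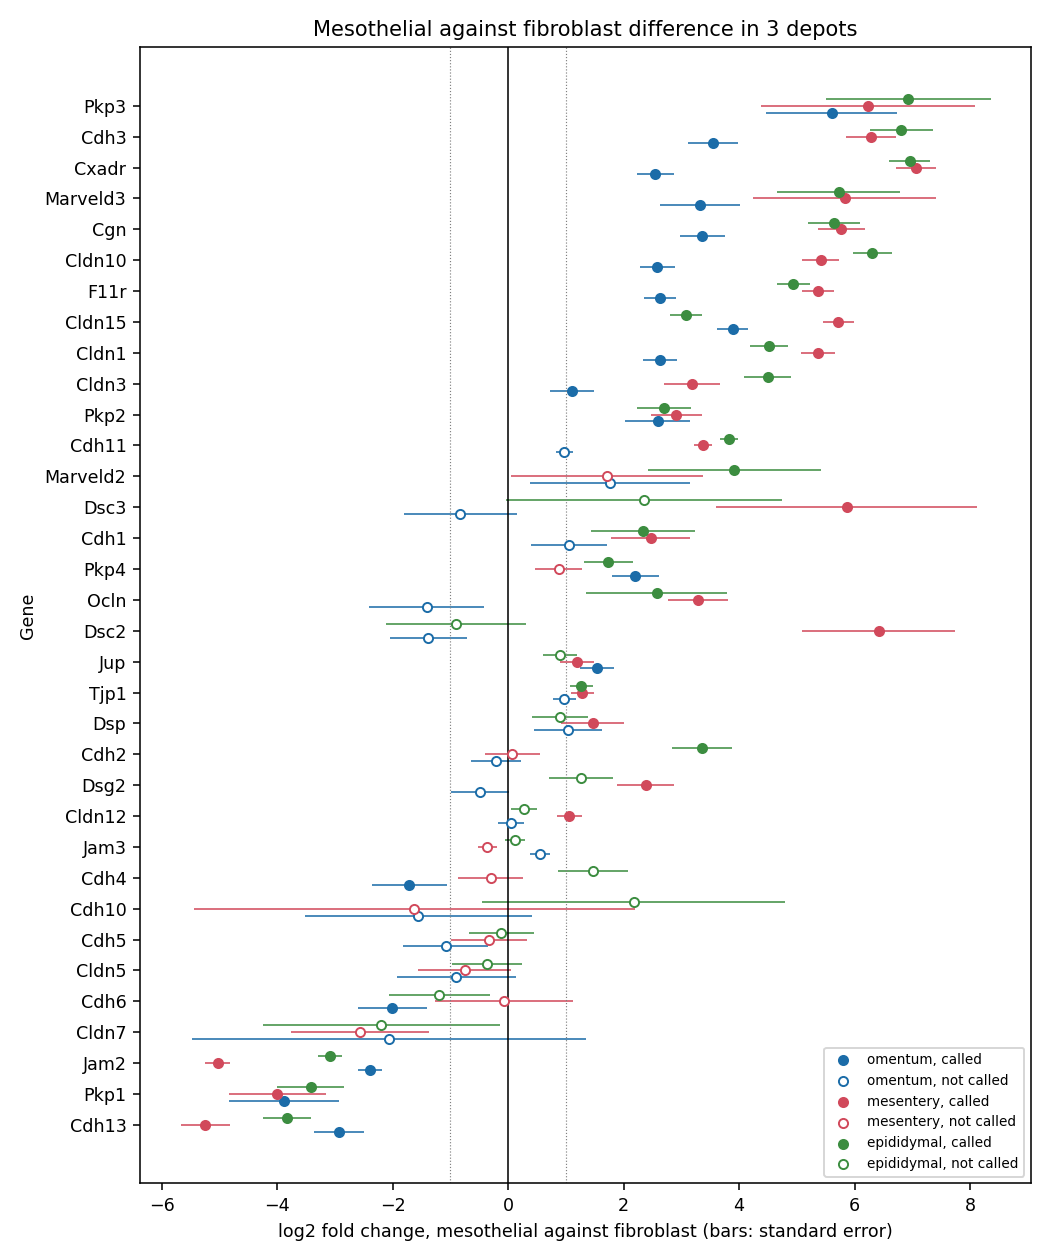
Log2 fold change of mesothelial cells over fibroblasts (horizontal axis, points with SE bars, filled where called and open where not; dotted lines at the fold threshold) in omentum, mesentery and epididymal fat for 34 of the 40 tested genes (vertical axis); the 6 with a group at no count are left out. Most points lie to the right of 0, Jam2, Cdh13 and Pkp1 lie to the left in all 3 depots, and the omentum point is often the smallest.

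Markers of other cells also differed between the sides. The mesothelial libraries had 48.77 to 112.8 CPM summed over 11 epithelial markers, against 1.43 to 9.65 CPM in the fibroblasts of their depots, with Krt5 and Cdhr5 at no count in mesentery and Cdhr5 in omentum mesothelial cells. The 16 leukocyte markers summed to 680.8 to 1810 CPM in mesentery mesothelial cells and 17.85 to 48.61 CPM in mesentery fibroblasts. The corresponding ranges were 723.2 to 844.0 CPM and 416.2 to 574.9 CPM in omentum and 109.4 to 215.3 CPM and 38.39 to 93.28 CPM in epididymal fat. Ptprc, the CD45 gene and a member of that list, did not follow the sums. In omentum it was at 0.496 to 1.59 CPM in mesothelial cells and 3.45 to 5.10 CPM in fibroblasts. In mesentery and epididymal fat its libraries overlapped. The 12 endothelial markers, Cdh5 among them, summed to less in the mesothelial cells of mesentery (102.5 to 130.7 CPM, against 278.8 to 380.4 CPM in fibroblasts) and epididymal fat (77.61 to 116.5 against 388.1 to 499.5 CPM), and overlapped in omentum (54.74 to 96.14 and 83.01 to 122 CPM). The 8 mural markers summed to more in mesothelial cells, at 329.7 to 403.2 CPM in omentum, 178.4 to 218.7 CPM in mesentery and 449.3 to 651.4 CPM in epididymal fat, against 204.5 to 286.2, 93.12 to 174.5 and 87.58 to 148.9 CPM in the fibroblasts. The 8 Schwann cell markers summed to 76.94 to 127.1 CPM in mesothelial cells and 9.43 to 35.95 CPM in fibroblasts of their depots, with Sox10 and Cdh19 at no count in omentum mesothelial cells. Their part in the differences was not tested. When the libraries with at least 2000 CPM of acinar transcripts were left out, and under each of the other alternatives run, 22 of the 28 calls held, among them Cdh3, Cdh11, Cdh13, Jup, Pkp3, Cldn1, Cldn3, Cldn10, Cldn15, F11r, Jam2, Cxadr and Cgn.

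Genes that work beside these were read from 3 further lists, to be set against the 12.3% of all genes that were higher, the 9.08% that were lower and the median of 0.11. Of 25 tested tight junction adaptor and polarity genes 13 were higher and none lower, with a median of 1.86. The cingulin relative Cgnl1 had a mean of 243.9 CPM in mesothelial cells and 14.13 CPM in fibroblasts (4.49, SE 0.14, adjusted p = 1.81e-21, edgeR), Crb2 and Pard6b of the apical polarity complexes differed by 5.59 and 5.19, and Lsr, which marks tricellular junctions, by 5.55. Of 14 adherens junction partners, 3 were higher and 2 lower with a median of 0.06: Nectin2 differed by 2.76 and Ctnnd2 by 4.20, Nectin1 by -2.72 and Nectin4 by -4.55. Of 11 tested regulators of the epithelial and mesenchymal states 5 were lower, among them the E-box repressors Zeb2 (-2.65), Snai1 (-2.90) and Snai2 (-1.76), and 3 were higher (Grhl1, Ovol1 and Esrp2).

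The depots differed in how far mesothelial cells and fibroblasts stood apart. In omentum 21 of 40 genes were called (13 higher and 8 lower, where 16.9% of all genes were called, 8.10% higher and 8.79% lower), in mesentery 26 (22 and 4, where 18.3%, 10.8% and 7.53% of all genes were) and in epididymal fat 25 (20 and 5, where 24.7%, 16.6% and 8.16% were). The medians of the tested junction genes were 0.76, 1.59 and 1.95 on the log2 scale, against -0.09, 0.09 and 0.33 over all genes. Called higher in all 3 depots were Cdh3, Pkp2, Pkp3, Cldn1, Cldn3, Cldn10, Cldn15, Marveld3, F11r, Cxadr and Cgn. Called lower in all 3 were Cdh13, Pkp1 and Jam2. The share of all genes called in all 3 depots at once was not computed, so these names are a description only. The omentum call of Cldn3, at 1.11, ended without omentum fibroblast replicate 1 (1.17) or 2 (0.79) or omentum mesothelial replicate 3 (0.97).

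A test of the difference between the depots itself, asking whether the 3 mesothelial effects are equal, called 19 of the 40 genes, against 10.9% of all genes. The mesothelial effect on Cxadr was 2.55 (SE 0.32) in omentum, 7.07 (SE 0.34) in mesentery and 6.96 (SE 0.36) in epididymal fat on the log2 scale, adjusted p between depots 3.67e-08 (edgeR's quasi-likelihood test). Cdh11 differed by 0.97, 3.37 and 3.82 in the same order (adjusted p = 1.58e-10, edgeR) and Cldn10 by 2.58, 5.41 and 6.31 (adjusted p = 1.47e-06, edgeR). In these 3 genes the omentum effect was the smallest, and it was the fibroblast side that varied most: the mean mesothelial Cdh11 level ran from 240.9 to 314.3 CPM over the depots and the mean fibroblast level from 17.1 to 160.2 CPM.

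Cldn15 and Jam2 varied differently. The Cldn15 effect was 3.89 in omentum, 5.72 in mesentery and 3.08 in epididymal fat, following fibroblast means of 55.51, 16.79 and 82.16 CPM (adjusted p between depots 4.1e-05, edgeR). Jam2 differed by -2.39, -5.03 and -3.09 (adjusted p = 4.96e-07, edgeR), with its lowest mesothelial values, 3.64, 3.99 and 3.0 CPM, in mesentery. Cdh2 was called in epididymal fat (3.36, SE 0.52) and not in omentum (-0.21) or mesentery (0.07). Dsc2 differed in mesentery (6.41, SE 1.33) and not past the threshold in omentum (-1.39) or epididymal fat (-0.90); its between-depot range of 7.80 became 8.78 without epididymal mesothelial replicate 1 and 8.64 without mesentery fibroblast replicate 1. In every alternative run 11 of the 19 calls held: Cdh2, Cdh11, Dsc2, Cldn1, Cldn3, Cldn10, Cldn15, F11r, Jam2, Cxadr and Cgn.

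**Figure D3:**
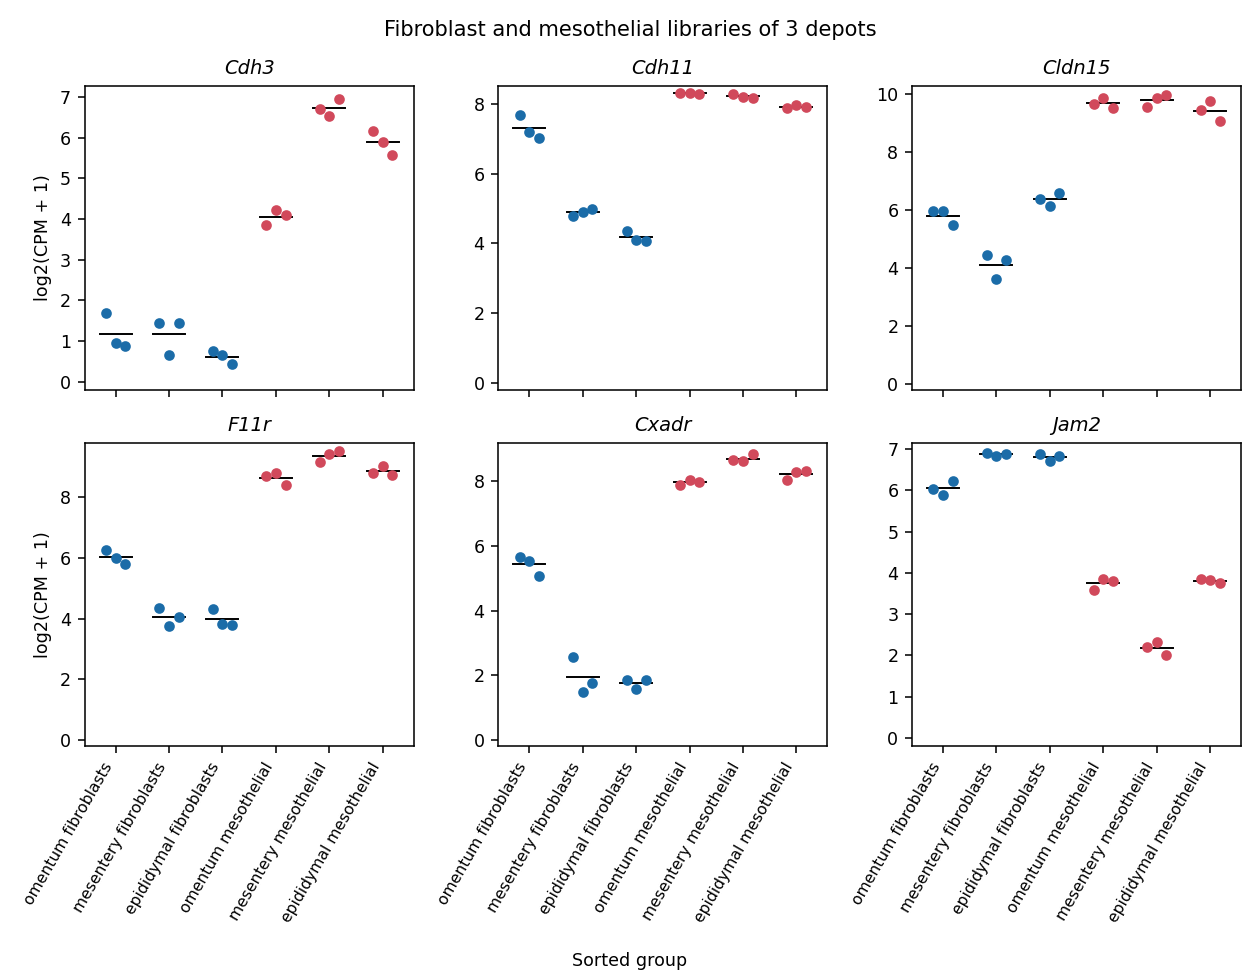
Levels as log2(CPM + 1) (vertical axis) of Cdh3, Cdh11, Cldn15, F11r, Cxadr and Jam2 in each mesothelial and fibroblast library of the 3 depots (horizontal axis); each point is 1 library and each line the mean of the log values. The sides separate in every depot, and the gap for Cdh11, F11r and Cxadr is smallest in omentum, where the fibroblasts are highest.

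Omentum fibroblasts carried several of the genes that were high in mesothelial cells. Set against fibroblasts of the other tissues, 10 of 40 genes were higher there and 3 lower (10% of all genes were called, 7.64% higher and 2.38% lower), Cxadr by 3.58 (SE 0.25, adjusted p = 1.51e-14, edgeR), Cgn by 2.27 (SE 0.31), F11r by 2.26 (SE 0.21), Cdh11 by 2.06 (SE 0.12) and Cldn10 by 1.96 (SE 0.23). The call of Cdh3 there, 1.46, ended at 0.86 without omentum fibroblast replicate 1. Mesothelial markers were also highest in these fibroblasts. As a share of the omentum mesothelial mean, omentum fibroblasts had 51.0% of Cdh11, 17.1% of Cxadr, 16.7% of Cldn10, 16.2% of F11r, 16.2% of Cldn1, 9.7% of Cgn, 8.48% of Cdh3, 6.76% of Cldn15 and 1.93% of Pkp3. The 16 mesothelial markers together gave 7.9%, and singly they spread from 0.432% (Krt18) and 0.877% (Msln) through 5.35% (Upk3b) and 14.6% (Nkain4) to 98.3% (Wt1). Cldn3, Pkp2 and Marveld3 are left out of the shares above. In omentum they were higher in mesothelial cells than in fibroblasts by 1.11, 2.59 and 3.32 on the log2 scale. The part of mesothelial RNA in the omentum fibroblast values was not tested.

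Mesothelial cells of the 3 depots were next compared with each other, which asks whether the lining cells of different sites carry the same junctions. Across the depots 16 of 40 genes were called (12.3% of all genes). Mesentery mesothelial cells had the most Cldn1, with 342, 311 and 356 CPM, against 54.0, 54.7 and 59.0 CPM in omentum and 53.3, 55.1 and 70.6 CPM in epididymal mesothelial cells. The mesentery level stood apart, by 2.59 on the log2 scale from omentum (omentum minus mesentery -2.59, SE 0.29, adjusted p = 7e-07, edgeR) and by 2.50 from epididymal (SE 0.29, adjusted p = 1.17e-06, edgeR), while omentum and epididymal libraries overlapped.

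Ocln, Dsc2 and Dsg2 were also highest in mesentery mesothelial cells, at lower levels. Dsg2 was at 4.41 to 6.63 CPM there and 0.634 to 2.42 CPM in the other mesothelial libraries. Ocln (occludin) had 4.14, 3.38 and 5.88 CPM in mesentery, 0.176, 0.0276 and 0.132 CPM in omentum and 0.142, 0.158 and 0.798 CPM in epididymal mesothelial cells. The mesentery-epididymal difference in Ocln was 3.48 (SE 0.54, adjusted p = 3.04e-06, edgeR) and 4.86 without epididymal mesothelial replicate 3. Dsc2 was at 15.2, 4.90 and 8.88 CPM in mesentery and at most 2.08 CPM in the other mesothelial groups, 5.46 above epididymal (SE 1.01, adjusted p = 4.81e-05, edgeR), or 6.89 without epididymal mesothelial replicate 1. The omentum Dsc2 libraries (0.579 to 2.08 CPM) lay above the epididymal ones (0.0317 to 0.513 CPM), a difference of 2.50 that missed the threshold (adjusted p = 0.0776, edgeR). Acinar transcripts reached 5936 CPM in mesentery mesothelial replicate 1, and the calls of Cldn1, Ocln and Dsc2 held without that library. Mesentery mesothelial replicates 2 and 3 still held 1756 and 197.2 CPM of them. The other mesothelial libraries held 34.77 to 101.6 CPM in epididymal fat and 51.12 to 2374 CPM in omentum. The part of acinar transcripts in the mesentery values was not tested.

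Epididymal mesothelial cells had the most Cldn3 and Cdh2. Cldn3 was at 30.5, 34.5 and 27.9 CPM there, against 6.16, 6.58 and 4.41 CPM in mesentery and 5.46, 5.57 and 7.22 CPM in omentum, so that only the epididymal libraries stood apart. The differences were -2.44 for mesentery minus epididymal (SE 0.35, adjusted p = 2.5e-05, edgeR) and -2.35 for omentum minus epididymal. Cdh2 was at 4.67, 3.90 and 6.48 CPM in epididymal mesothelial cells and at most 1.71 CPM in the others, a difference of -2.22 for mesentery minus epididymal (SE 0.42, adjusted p = 0.00073, edgeR).

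Omentum mesothelial cells were marked by less Cdh3. Their 13.4 to 17.7 CPM lay below all mesentery and epididymal libraries, by -2.75 from mesentery (SE 0.36, adjusted p = 5.53e-06, edgeR) and -1.90 from epididymal (SE 0.36, adjusted p = 0.000539, edgeR). By pairs of depots, omentum against mesentery gave 2 higher and 7 lower genes (5.15% of all genes, 2.36% and 2.79%), omentum against epididymal 0 higher and 10 lower (10.4%, 3.55% and 6.83%) and mesentery against epididymal 5 higher and 5 lower (4.18%, 1.98% and 2.21%). The 10 of omentum against epididymal dropped to 4 without omentum mesothelial replicate 2, and to 5 when only these groups were fitted. Other cells' markers also differed between the mesothelial depots. Summed mural markers were highest in epididymal mesothelial cells and summed leukocyte markers lowest there. Of the mural list Rgs5, Notch3, Abcc9 and Myh11 were called across the depots, and Cspg4, Kcnj8, Acta2 and Cnn1 were not. Of the tested leukocyte markers only Cd74 was called, and the mesothelial library with the most Ptprc was epididymal (2.51 CPM). Of the endothelial list Cdh5, Tek and Egfl7 were called and the others were not. Rgs5 had means of 10.1 CPM in epididymal, 2.50 CPM in mesentery and 1.92 CPM in omentum mesothelial cells. Krt14, Krt15, Krt23 and Spint2 of the epithelial list were called too, while Epcam, Trp63, Elf3, Spint1, Prom1 and Cdhr5 were not. Krt14 was at a mean of 34.3 CPM in epididymal, 32.0 CPM in mesentery and 3.85 CPM in omentum. Of the tested acinar markers, all but Cela1 were called. The part of such cells in the depot differences was not tested. In every alternative run the calls of Cdh2, Cdh3, Dsc2, Dsg2, Cldn1, Cldn3, Cldn5, Ocln and Jam2 across the 3 depots held.

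**Figure D4:**
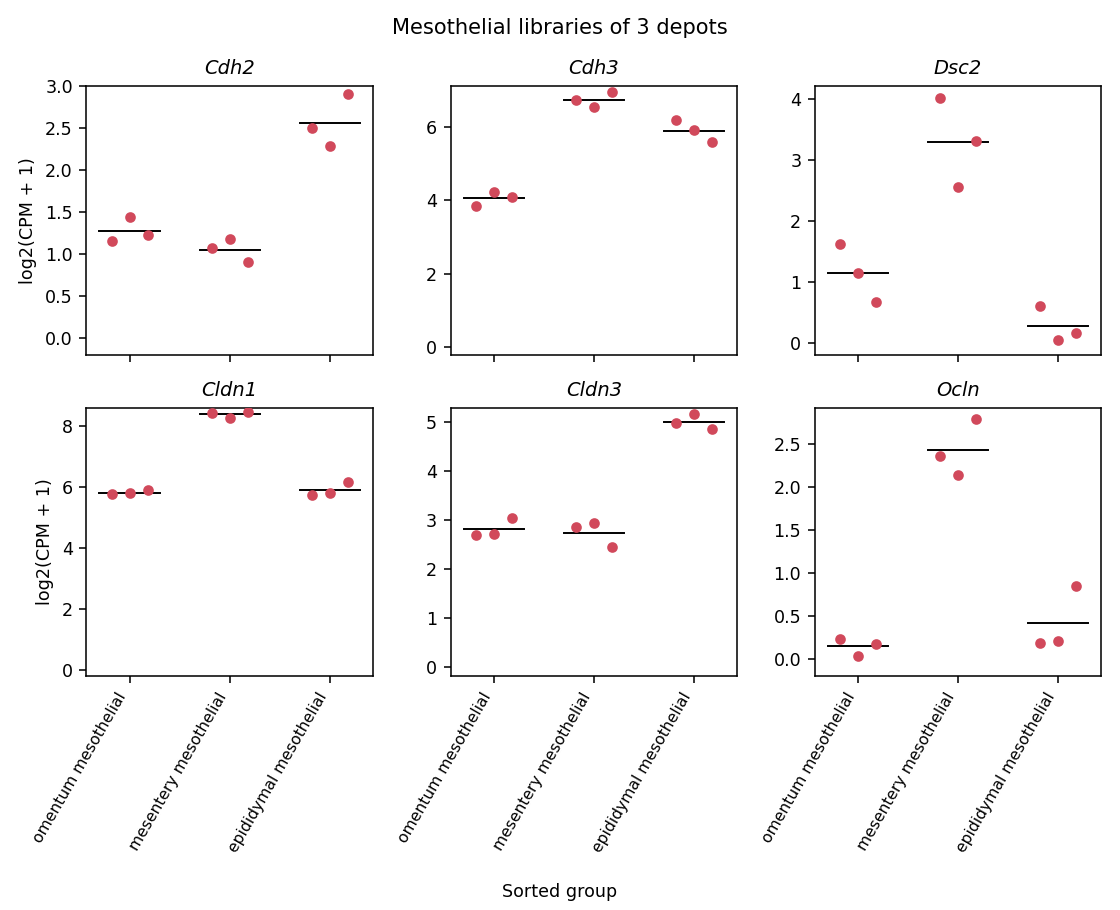
Levels as log2(CPM + 1) (vertical axis) of Cdh2, Cdh3, Dsc2, Cldn1, Cldn3 and Ocln in the 9 mesothelial libraries by depot (horizontal axis); each point is 1 library and each line the mean of the log values. Mesentery is highest for Dsc2, Cldn1 and Ocln, epididymal for Cdh2 and Cldn3, and omentum is lowest for Cdh3.

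Fibroblasts were then compared across the 9 tissues. Here 38 of 40 genes were called, all but Tjp1 and Jam3, where 44.0% of all genes were. Tjp1 and Jam3 passed the adjusted p (0.00384 and 0.000277, edgeR's quasi-likelihood test). Both missed the fold threshold, with ranges of 0.917 and 0.988 on the log2 scale. Tjp1 and Jam3 were expressed throughout, at 16.2 to 39.0 CPM and 53.9 to 121 CPM. Each tissue was set against the mean of the others on the log scale, so these comparisons share libraries and are not independent of each other.

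Lymph node fibroblasts differed in the most junction genes, with 12 of 40 higher and 12 lower (16.4% of all genes, 9.32% higher and 7.13% lower). Dsc3 was at 710.3, 946 and 436 CPM there, at 23.2 and 18.9 CPM in spleen and at most 1.77 CPM in the 7 other fibroblast groups, which do not overlap with either. Dsc2 was at 292, 419 and 237 CPM in lymph node, 59.5 and 18.4 CPM in spleen and at most 6.89 CPM elsewhere among fibroblasts. The lymph node differences were 11.35 for Dsc3 (SE 0.63, adjusted p = 4.41e-23, edgeR) and 9.0 for Dsc2 (SE 0.70, adjusted p = 4.39e-18, edgeR). Their desmosomal partners did not follow in proportion. Dsg2 was at 15.4, 19.1 and 27.9 CPM (3.69, SE 0.31) and Jup at 34.4, 61.6 and 20.9 CPM, overlapping with the 25.7 to 99.4 CPM of other fibroblasts. Dsp was at 0, 0.141 and 0 CPM in the lymph node libraries and was called lower (-3.37), a call that ended without lymph node replicate 1 (-2.81) or 3 (-2.89), inguinal replicate 2 (-2.97) or spleen replicate 1 (-2.91) and became -7.28 without lymph node replicate 2.

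Claudins and other tight junction genes split in the same lymph node libraries, with 4 higher (Cldn1, Cldn12, F11r and Cxadr) and 7 lower (Cldn3, Cldn5, Cldn7, Cldn10, Cldn15, Ocln and Jam2). Cldn1 was at 470.3, 383 and 204 CPM and at most 9.75 CPM in every other fibroblast library (6.22, SE 0.22, adjusted p = 1.38e-23, edgeR). Cxadr was at 127, 136 and 104 CPM (5.29, SE 0.25, adjusted p = 7.91e-20, edgeR) and F11r at 134, 127 and 113 CPM (3.34, SE 0.21, adjusted p = 9.65e-17, edgeR), both above all other fibroblast libraries. Jam2 was at 10.9, 10.2 and 12.2 CPM, below every other fibroblast library, whose lowest value was 34.9 CPM (-2.68, SE 0.16, adjusted p = 4.75e-13, edgeR). Cldn15 and Cldn10, high in mesothelial cells, were lower here than in the mean of the other tissues, at 10.2 to 18.3 CPM and 3.25 to 6.12 CPM. Cldn3, Cldn5, Cldn7 and Ocln were at most 0.676 CPM in any lymph node library. Of these 11 calls, 5 ended when 1 library was left out. Cldn12 (1.07) was 0.95 or 0.99 without lymph node replicate 1 or 2, and Cldn15 (-1.16) was -0.94 without replicate 3. The call of Ocln (-2.48) ended without any 1 of the lymph node libraries or spleen replicate 1, at -2.95 to -1.91. That of Cldn7 (-3.47) ended without lymph node replicate 1 (-2.91) or 2 (-2.85), and its value was -7.1 without replicate 3. That of Cldn5 (-2.43) ended without lymph node replicate 1 (-1.83) or 2 (-2.11), pancreas replicate 2 (-1.52) or spleen replicate 1 (-2.39), and its value was -4.16 without lymph node replicate 3.

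Cadherins of lymph node fibroblasts included Cdh4 (R-cadherin) at 43.1, 33.5 and 52.0 CPM, where no other fibroblast library exceeded 5.52 CPM (4.68, SE 0.37, adjusted p = 5.81e-14, edgeR). Cdh2 was at 60.1, 38.0 and 49.6 CPM, below bone alone, and Cdh11 at 108 to 118 CPM. Cdh3 was called at 2.56, and its value was 1.47 without lymph node replicate 2, the library at 5.34 CPM. Mural markers summed to 1521 to 1843 CPM in lymph node, above the 651.4 CPM or less of every other library, led by Abcc9 (504.5 CPM on average) and Rgs5 (491.9 CPM). Leukocyte markers summed to 360.3 to 903.5 CPM, most of it Cd74 (566 CPM), with Cd3e at 0.32 CPM. Epithelial markers summed to 19.58 to 23.08 CPM with 7 of 11, Epcam among them, at no count, and 6 of 16 mesothelial markers, including Msln, Krt8 and Krt18, were at no count. The part of such cells in the lymph node values was not tested.

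Spleen fibroblasts shared the desmocollins at a lower level and 4 of 40 genes were higher, 2 lower (3.88% of all genes, 3.47% higher and 0.416% lower). Dsc3 was 5.67 above the mean of the other tissues (SE 0.69, adjusted p = 6.4e-11, edgeR), although that mean includes lymph node. Dsc2 was 5.60 above (SE 0.75), and 4.52 or 6.21 with spleen replicate 1 or 2 left out. Spleen Cldn1 (8.62 and 8.44 CPM), Cxadr (3.11 and 4.75 CPM) and Cdh4 (2.74 and 1.80 CPM) were within the range of the remaining tissues, unlike in lymph node.

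In bone fibroblasts 10 of 40 genes were higher and 4 lower (19.5% of all genes, 12.8% higher and 6.65% lower). The cadherins among the 10 were Cdh2, Cdh11 and Cdh10. Cdh10 ran from 0 to 2.61 CPM over the bone libraries, so its mean of 0.881 CPM rests largely on 1 library. Cdh2 was at 227, 302 and 406 CPM, above lymph node and far above the 3.26 CPM or less of the 7 other fibroblast groups (7.12, SE 0.26, adjusted p = 2.48e-23, edgeR). Cdh11, first described in osteoblasts, was at 243, 259.8 and 286 CPM, above every other fibroblast library (2.87, SE 0.12, adjusted p = 1.01e-22, edgeR). The third gene whose bone libraries stood above all other fibroblasts was Pkp4 (p0071), an armadillo protein of adherens junctions and desmosomes, at 19.6, 19.1 and 36.4 CPM (2.80, SE 0.29). Cldn15 was at 8.97, 4.01 and 5.29 CPM, the lowest among fibroblasts (-2.62, SE 0.23), and F11r at 1.75, 4.79 and 3.40 CPM (-2.54, SE 0.25).

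**Figure D5:**
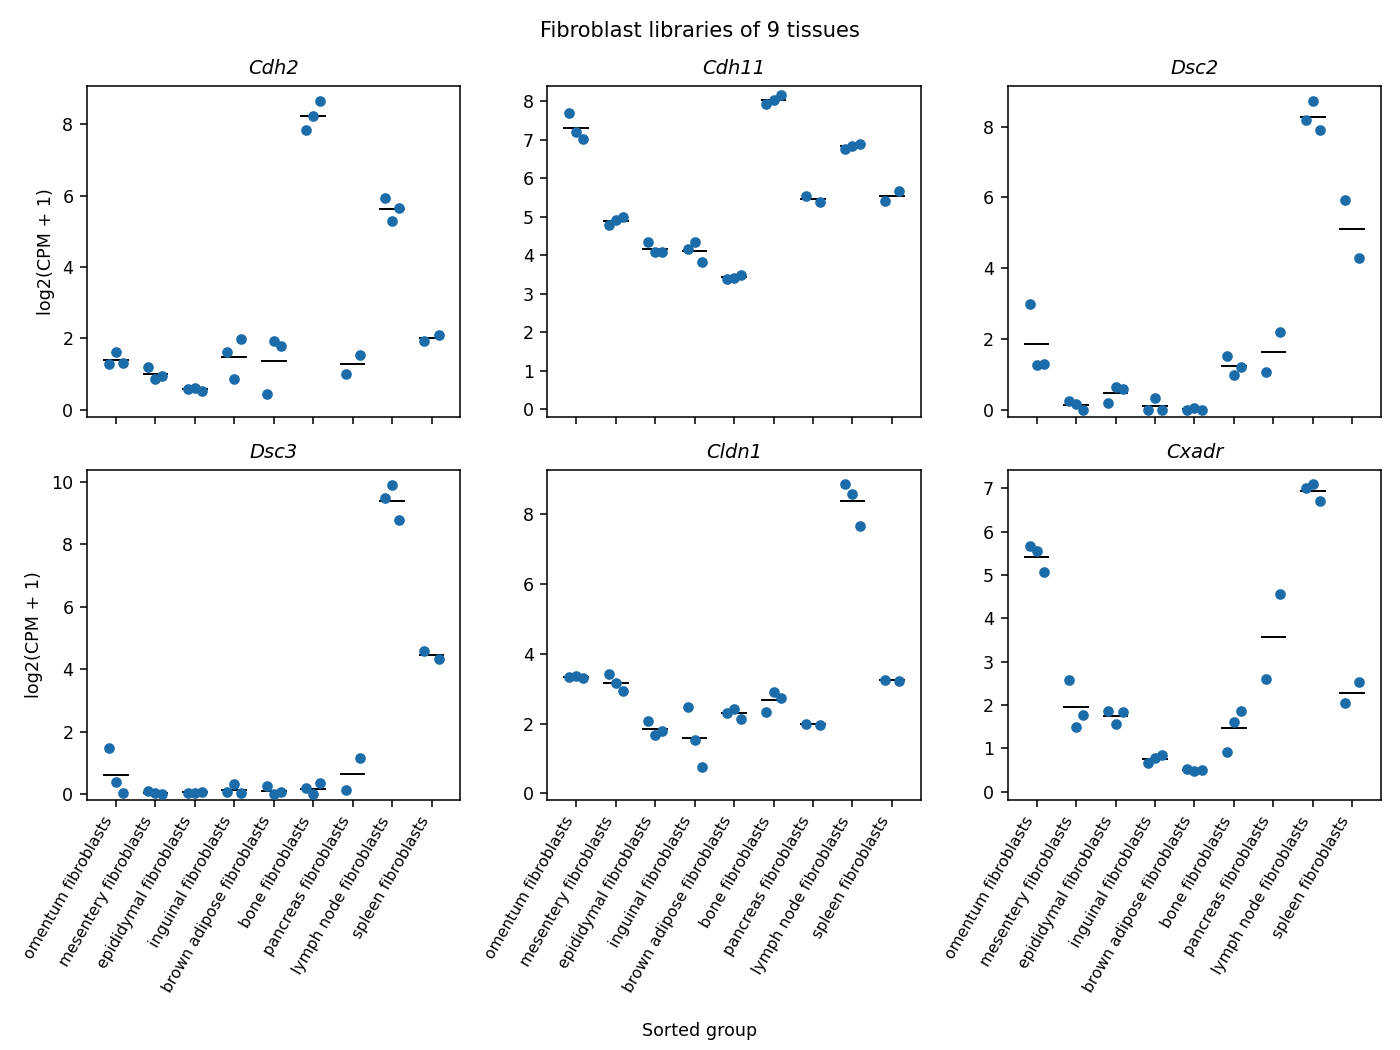
Levels as log2(CPM + 1) (vertical axis) of Cdh2, Cdh11, Dsc2, Dsc3, Cldn1 and Cxadr in the 25 fibroblast libraries by tissue (horizontal axis); each point is 1 library and each line the mean of the log values. Lymph node stands apart for Dsc2, Dsc3, Cldn1 and Cxadr, bone for Cdh2 and Cdh11, and spleen lies between lymph node and the rest for Dsc3.

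Fat fibroblasts split by site. Fibroblasts of the visceral depots (omentum, mesentery and epididymal) had 8 of 40 genes higher and 4 lower than those of inguinal and brown fat (8.23% of all genes, 4.29% higher and 3.94% lower), the depots labelled subcutaneous. F11r was at 12.4 to 74.6 CPM in the visceral and 2.74 to 6.21 CPM in the subcutaneous libraries (2.54, SE 0.20, adjusted p = 6.11e-11, edgeR), and Cxadr at 1.81 to 49.8 CPM and 0.396 to 0.802 CPM (3.65, SE 0.33, adjusted p = 1.5e-10, edgeR); neither overlapped. The 16 mesothelial markers summed to 203.1 to 1269 CPM in the visceral and 37.25 to 84.5 CPM in the subcutaneous fibroblasts, and their part in these differences was not tested. Cdh11 was higher on the visceral side by 1.75 (SE 0.10), but epididymal fibroblasts (15.9 to 19.4 CPM) and inguinal fibroblasts (13.3 to 19.4 CPM) overlapped, so omentum and mesentery carried that difference. Cdh9, a type II cadherin better known from brain and kidney, was at 18.9, 13.4 and 14.9 CPM in inguinal and 12.8, 15.9 and 15.9 CPM in brown fat, at no count in all 3 mesentery fibroblast libraries and at most 1.71 CPM in the other fibroblasts.

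Inguinal fibroblasts had 5 genes higher and 8 lower than other tissues (6.30% of all genes, 3.35% higher and 2.96% lower), brown fat 3 higher and 8 lower (6.41%, 3.66% and 2.75%), epididymal 7 higher and 6 lower (4.43%, 2.50% and 1.93%) and mesentery 3 higher and 3 lower (3.50%, 2.19% and 1.31%). Cldn10 was at 56.1, 47.0 and 54.4 CPM in inguinal fibroblasts (2.34, SE 0.23, adjusted p = 1.94e-10, edgeR), overlapping with omentum fibroblasts (37.1 to 50.5 CPM) and above the 1.98 to 5.89 CPM of the other visceral fat fibroblasts. Cldn15 was at 68.1, 148 and 132 CPM there (2.16, SE 0.20), overlapping with epididymal fibroblasts at 69.4 to 95.5 CPM. Cxadr was low in both subcutaneous groups, with differences of -3.09 (SE 0.40) in inguinal and -3.93 (SE 0.46) in brown fat fibroblasts. Brown fat had the least Cdh11 of all fibroblasts, 9.52 to 10.2 CPM. Epididymal fibroblasts stood above all others in Cldn5, a claudin best known from endothelium, at a mean of 6.10 CPM. No other fibroblast library exceeded 3.27 CPM. The epididymal difference of 2.70 became 3.62 without pancreas fibroblast replicate 2. Endothelial markers summed to 388.1 to 499.5 CPM in the epididymal fibroblasts. That range overlapped with brown fat (383.7 to 441.3 CPM), inguinal (296.6 to 396.7 CPM) and pancreas fibroblasts (192.8 to 464.6 CPM). The part of endothelial cells in the Cldn5 values was not tested.

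Pancreas fibroblasts had 15 of 40 genes higher and 4 lower (11% of all genes, 8.65% higher and 2.31% lower), and 10 of the 19 calls ended when 1 library was left out. Cdh1 was at 10.8 and 77.1 CPM, and at most 1.44 CPM in all other fibroblasts (7.39, SE 0.52, adjusted p = 3.75e-18, edgeR). It was 8.20 and 5.36 without replicate 1 and 2, and 8.06 without spleen replicate 1. Ocln was at 2.82 and 7.30 CPM (4.54, or 3.72 without replicate 2), Cldn7 at 1.20 and 10.5 CPM (4.39) and Cldn3 at 2.92 and 16.4 CPM (3.34). Without replicate 1 or 2, Cldn7 gave 5.26 or 2.13 and Cldn3 gave 4.12 or 1.63. The calls of Cdh5, Dsg2, Pkp3, Marveld2, Marveld3, Cxadr and Cgn ended without pancreas replicate 2. That library also held 170000 CPM of acinar transcripts, against 34770 CPM in replicate 1, and epithelial markers summed to 20 and 78.18 CPM in the pancreas libraries, with Krt14 and Krt15 at no count. Their part in the pancreas values was not tested.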

How the data were processed

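PolyA RNA of 34 sorted libraries was analysed from the read counts per gene that the authors deposited, 1 file a library, as whole numbers and not normalized. Salmon and GRCm38 are named per the submitters' processing notes; the annotation release, filters, strand setting and any pooling are not given in the sources used here. Groups came from the sample titles. Gene IDs were named from GENCODE, which also gave positions and exonic lengths. The 43 genes, the other gene lists and the markers were chosen with earlier results of these data known.

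All 34 libraries entered 1 fit in edgeR 4.0.16 (R 4.3.3): TMM scaling, genes kept by the count filter at a minimum of 10, and a robust quasi-likelihood test with Benjamini-Hochberg adjustment over 25705 genes. A call needed an adjusted p under 0.05 together with a log2 difference of 1 or more in either direction; for a test over several groups, the largest range had to reach 1. Genes named were the members, and in each further list the called genes of smallest adjusted p, up to 4. Among the regulators of the epithelial and mesenchymal states more called genes than that were named. Alternatives were DESeq2 1.42.0, other scalings and filters, only the groups compared, a replicate block and each library left out; leaving out libraries with at least 2000 CPM of acinar transcripts was chosen after seeing the data. Some results of the further gene and marker lists are not reported here. The scripts were tested on simulated data. SDs and p-values cover the spread between libraries only, and the 3-count level covers counting error only.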

Additional observations from a re-analysis of the deposited data

Results flagged for a closer look

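The mesothelial effect, mesothelial cells minus fibroblasts of the same depot on the log2 scale, was tested for a difference between omentum, mesentery and epididymal fat, and 19 of the 40 tested junction genes passed in edgeR's quasi-likelihood test, against 10.9% of all genes. The value given is the range between the smallest and the largest of the 3 depot effects. Among cadherins it was 3.57 for Cdh2, 3.26 for Cdh3, 3.19 for Cdh4, 2.85 for Cdh11 and 2.31 for Cdh13. Among desmosome genes it was 7.80 for Dsc2, 6.69 for Dsc3, 12.00 for Dsg1a and 2.88 for Dsg2. The Dsg1a range depends on the prior count, since omentum mesothelial cells and mesentery fibroblasts had no count of it. Claudins gave 2.75 for Cldn1, 3.38 for Cldn3, 3.73 for Cldn10, 2.64 for Cldn15 and 9.53 for Cldn22, which also had groups at no count and overlaps Wwc2. The remaining tight junction genes gave 4.69 for Ocln, 2.74 for F11r, 2.65 for Jam2, 4.52 for Cxadr and 2.40 for Cgn. The calls of Cdh4, Cdh13, Dsc3, Dsg1a, Dsg2 and Cldn22 ended when 1 library was left out: the range was then as low as 2.06 for Cdh4 (without epididymal mesothelial replicate 2), 1.41 for Cdh13 (without omentum mesothelial replicate 3), 4.13 for Dsc3 (without mesentery mesothelial replicate 1), 2.51 for Dsg2 (without omentum mesothelial replicate 2) and 8.54 for Cldn22 (without epididymal mesothelial replicate 2).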

How the results depend on the processing

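Over all alternatives, 8098 of 8520 recomputed values of the junction genes kept their direction and their side of the threshold, 414 dropped below it, 4 rose above it and 4 changed sign. The last were Jam3 in the depot average (-0.06 to 0.15 with 1 library left out, and below 0 without epididymal mesothelial replicate 1 or omentum fibroblast replicate 2) and, in pancreas fibroblasts, Cdh5 (-1.52 to 2.90) and Pkp3 (-3.34 to 5.83), both below 0 without pancreas replicate 2. Without the libraries rich in acinar transcripts, omentum against mesentery mesothelial cells gave 771 genes (1324 otherwise) and omentum against epididymal 6 junction genes (10 otherwise). Fitting only the groups compared gave 1612 genes and 5 junction genes for omentum against epididymal (2668 and 10 otherwise). Without a filter, mesentery against epididymal mesothelial cells gave 1904 genes and 16 junction genes (1075 and 10), and mesentery fibroblasts 10 junction genes (6). Leaving out each library in turn gave ranges of 1767 to 3418 genes for the difference between depots, 845 to 1428 for omentum against mesentery, 1312 to 2792 genes and 4 to 8 junction genes for omentum against epididymal, 6 to 9 junction genes for mesentery against epididymal, 1862 to 3063 genes for pancreas and 476 to 1068 for spleen. With DESeq2 the share of all called genes that were higher moved from 52.2% to 64.1% (visceral against subcutaneous fat), 62.6% to 48.0% (mesentery fibroblasts), 56.4% to 44.5% (epididymal), 53.1% to 34.1% (inguinal), 57.1% to 39.2% (brown fat), 78.9% to 60.1% (pancreas) and 89.3% to 75.0% (spleen), and with only the groups compared from 34.2% to 51.2% (omentum against epididymal mesothelial cells). Upper-quartile scaling moved the median of all genes in omentum by -0.14, and fitting only the groups moved it in epididymal fat from 0.33 to 0.06. The cause was not tested.

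Whether replicate numbers pair the libraries cannot be settled with so few libraries a group. Deviations of 9 same-numbered mesothelial and fibroblast pairs correlated at -0.42 to 0.38, and 3 libraries correlated best with their own number. The same-numbered values were 0.07, 0.38 and 0.38 in epididymal fat, 0.02, -0.24 and -0.09 in omentum and -0.02, -0.42 and -0.17 in mesentery. With a replicate block, the junction genes called went from 19 to 17 for the difference between depots, from 10 to 8 for mesentery against epididymal mesothelial cells and from 6 to 7 for spleen. Depth limits the low genes: 3 counts corresponded to 0.0684 to 0.118 CPM by library, so values under 0.0684 CPM are within 3 counts of 0 in every library.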
